A study of Mus musculus with 12 samples.

Results

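The interaction of the Kit and K5 sorts was the difference between K5+ and K5- cells among Kit+ cells minus the same difference among Kit- cells. It was computed on the log2 scale for each gene in all 12 of the 12 libraries. Of 43280 gene symbols in the count table, 17030 had counts high enough to be tested, and these are the genes described here. The cells were from the submandibular gland of embryonic day 15 mice of the transgenic strain Tg(KRT5-Venus)1Sgkd, in which the KRT5 promoter drives the fluorescent protein Venus. Cells were sorted by flow cytometry for E-cadherin, for the receptor tyrosine kinase Kit and for Venus. The 4 groups, of 3 libraries each, were cells with both labels (Kit+ K5+), with Kit alone (Kit+ K5-), with K5 alone (Kit- K5+) and with neither (Kit- K5-). Every group carried the transgene and the E-cadherin label. No treatment is given, and nothing in the labels says whether the 3 libraries of a group came from separate litters. The p-values therefore measure the spread between these libraries, which may be technical.

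The embryonic submandibular gland grows by branching of an epithelium within a mesenchyme. Kit, the receptor for stem cell factor, marks cells of the distal end buds, and keratin 5 marks basal cells of the ducts and progenitor cells. Cells with both labels, with one of them and with neither can be set out as a square, and the interaction asks whether the step from K5- to K5+ has the same size on the Kit+ side as on the Kit- side. The interaction is 0 where that step is the same on both sides. A positive value means that Kit+ K5+ and Kit- K5- together lie above the single positive groups, and a negative value that they lie below them.

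Because of this form, a gene that differs in a single group also has an interaction. The value was therefore split into parts that add up to it exactly. The double negative term is the Kit- K5- level minus the mean of the other 3 groups. The double positive term is the Kit+ K5+ level minus the mean of Kit+ K5- and Kit- K5+, and it enters the sum multiplied by 4/3. When Kit+ K5+, Kit+ K5- and Kit- K5+ have equal levels, the interaction equals the double negative term. Equality of these 3 groups was tested for each gene. A gene that failed it differed among these groups, but its interaction can still lie near the double negative term. This happens where Kit+ K5+ lies near the mean of the single positive groups. The gene Col5a1, for example, failed it with an interaction of 3.85 and a double negative term of 3.89.

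Libraries held 5589037 to 13724364 counts. Levels are counts scaled to library size (CPM) after scaling by trimmed means (TMM), given library by library as replicates 1, 2 and 3. Log2 values carry a standard error worked back from the F statistic of edgeR's quasi-likelihood test, only a rough guide where groups are near 0 counts. Adjusted p-values are from the same test with Benjamini-Hochberg adjustment over the 17030 genes, called at 0.05. Kit had 335, 303 and 319 CPM in Kit+ K5+, 445, 299.5 and 283 in Kit+ K5- and 15.3, 26.4 and 25.6 in Kit- K5+ libraries, against 10.03, 20.4 and 13.7 CPM in Kit- K5- libraries, so Kit+ and Kit- libraries did not overlap. Its interaction was -0.71 ± 0.39 (adjusted p = 0.363), which did not pass. Krt5 had 1.57, 9.93 and 4.26 CPM in Kit+ K5+, 0.317, 4.63 and 2.33 in Kit+ K5- and 22.9, 13.5 and 20.3 in Kit- K5+ libraries, against 0.853, 4.60 and 7.15 CPM in Kit- K5- libraries, and its interaction of -1.07 ± 1.18 did not pass (adjusted p = 0.689). The K5+ and K5- libraries overlapped for Krt5 among Kit+ cells, where the difference was 1.11 ± 0.85 (adjusted p = 0.829), and were apart among Kit- cells, where it was 2.18 ± 0.85 (adjusted p = 0.0964). Within each replicate number the K5+ library had more Krt5 than the K5- library on both Kit sides. Cdh1, which encodes the E-cadherin of the sort, had 1111, 758 and 530.2 CPM in Kit+ K5+, 909, 702 and 503 in Kit+ K5- and 657, 575 and 529.7 in Kit- K5+ libraries, against 172, 149 and 198 CPM in Kit- K5- libraries, and its 3 lowest libraries were those of Kit- K5- cells. The Cdh1 interaction of -1.58 ± 0.38 passed (adjusted p = 0.0341), but the call was lost when any of 8 of the 12 libraries was left out, and the value was 0.022 after a scaling to general epithelial genes.

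Of the genes tested, 478 were called with a positive interaction (2.81%) and 206 with a negative one (1.21%), together 684 (4.02%). In the gene lists below, a gene counted as positive or negative is one that was called. The median was 2.99 among the positive calls and -2.26 among the negative ones, against -0.09 over all genes tested. Scaling the libraries to 25 general epithelial genes in place of all genes moved the median of all genes to 1.56 and gave 6984 positive and 133 negative calls, so that signs here are relative to the typical gene. Without Kit- K5- replicate 1 there were 304 positive and 66 negative calls, and without library numbers 5 to 8 there were 80 and 7. The libraries numbered 1 to 4, 5 to 8 and 9 to 12 formed 3 runs with 1 library of every group, and the labels do not say what these runs share.

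For 603 of the 684 genes (88.2%) the group farthest from the mean of the others was Kit- K5-, against 46.5% of all genes tested. Kit- K5- was the highest group for 452 of these and the lowest for 151. Kit- K5+ stood farthest for 61 genes (8.92%, against 22.1% of all genes tested), the highest for 42 and the lowest for 19. Kit+ K5- did so for 15 genes (2.19%, against 14.9%), the highest for 8 and the lowest for 7, and Kit+ K5+ for 5 (0.731%, against 16.5%), lowest in each. Kit+ K5+ was the high group apart for 0 of the 684. The double negative term was larger in size than 4/3 of the double positive term in 615 of the 684 genes (89.9%), against 60.7% of all genes tested.

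The K5 difference itself was larger in size among Kit- than among Kit+ cells for 660 of the 684 genes (96.5%), against 67.6% of all genes tested, and the 2 differences had opposite signs for 460 (67.3%), against 44.1%. The 684 were chosen by the difference between these differences, so these shares describe the choice. Among Kit+ cells 0 passed edgeR's test for the K5 difference, both of the 684 and of all 17030 genes (0%), while 1161 genes had an unadjusted p under 0.05 there. Among Kit- cells 657 of the 684 passed it, against 16.5% of all genes tested. The double negative term was called for 5040 genes (29.6%), 2870 higher (16.9%) and 2170 lower (12.7%) in Kit- K5-. The double positive term was called for a single gene, Kit itself (0.00587%), with a log2 value of 1.87 ± 0.23. Kit was a gate of the sort, so this call describes the gate, and 1733 genes had an unadjusted p under 0.05 for the term. Inequality of the 3 groups other than Kit- K5- was called for 338 genes (1.98%), and 46 of the 684 interaction genes were among them, 30 positive and 16 negative. These counts depended on the tool and filter. The double positive term was called for 140 genes with DESeq2, 367 with no filter on low counts and 36 with library number as a replicate block, and the 46 numbered 266, 579 and 213 in the same settings, and 19 with limma-voom.

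**Figure D1:**
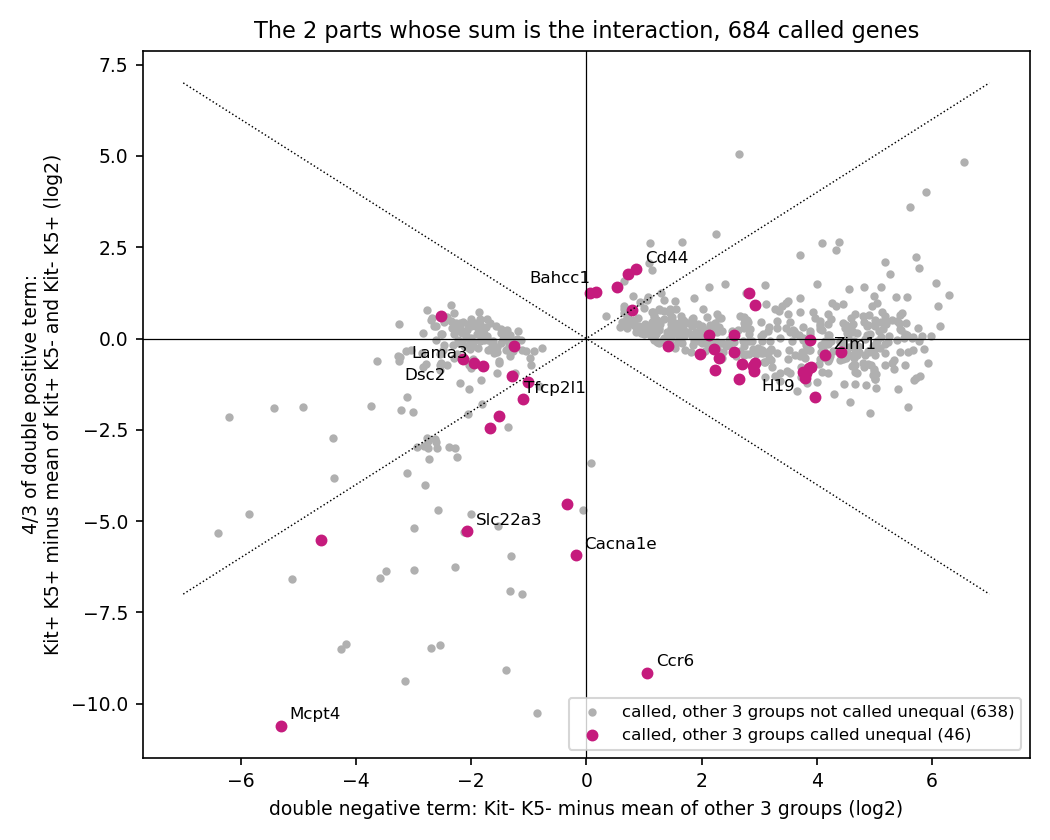
Each point is a gene called for the interaction (684 genes). The x axis is the double negative term and the y axis 4/3 of the double positive term, both log2, and their sum is the interaction. Dotted lines mark where the parts have equal size. Pink points are the 46 genes whose other 3 groups were called unequal. Most points spread along the x axis near a y value of 0, while Mcpt4, Ccr6, Cacna1e and Slc22a3 lie far below it, and Bahcc1 and Cd44 above the dotted line.

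In several of the genes with the smallest p, the level in Kit- K5- cells stood above 3 groups of low level. Nr2f2, a nuclear receptor of the COUP-TF family, had 19.5, 26.2 and 20.7 CPM in Kit+ K5+, 13.8, 17.7 and 15.7 in Kit+ K5- and 22.5, 34.1 and 28.5 in Kit- K5+ libraries, against 283, 292 and 262 CPM in Kit- K5- libraries. Its interaction was 3.79 ± 0.30 (adjusted p = 2.63e-05), with 4.13, 3.65 and 3.58 in the 3 runs. Slitrk6, a transmembrane protein with leucine-rich repeats, had 4.98, 5.01 and 4.13 CPM in Kit+ K5+, 2.43, 1.05 and 1.60 in Kit+ K5- and 2.50, 6.32 and 3.25 in Kit- K5+ libraries, against 120.3, 149 and 127 CPM in Kit- K5- libraries. No library of the other groups came near those of Kit- K5- cells for either gene. The Slitrk6 interaction was 6.50 ± 0.51 (adjusted p = 2.63e-05) and varied little between runs, at 6.45, 6.56 and 6.46. Kera, the matrix proteoglycan keratocan, had 3.04, 3.37 and 2.58 CPM in Kit+ K5+, 2.01, 0.527 and 2.18 in Kit+ K5- and 1.125, 2.75 and 1.15 in Kit- K5+ libraries, against 157, 203 and 112 CPM in Kit- K5- libraries, an interaction of 7.49 ± 0.64 (adjusted p = 2.99e-05). These genes lie on chromosome 7 at 70351944 to 70366735 (Nr2f2), chromosome 14 at 110748580 to 110755149 (Slitrk6) and chromosome 10 at 97606879 to 97613692 (Kera), in GENCODE M21 on GRCm38.

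The 10 largest positive interactions with at least 10 CPM in the highest group were all of genes highest in Kit- K5-. Hbb-y, an embryonic beta-like globin, led at 11.38 ± 2.47 (adjusted p = 0.0195), with 0, 0 and 4.91 CPM in Kit+ K5+, 0.106, 0 and 0 in Kit+ K5- and 0, 0.412 and 0.574 in Kit- K5+ libraries, against 4.92, 33.8 and 44.8 CPM in Kit- K5- libraries. Its Kit+ K5+ mean rested on replicate 3 alone, and counts of 0 in several libraries make the size of the fold uncertain. Cpa1, a carboxypeptidase, followed at 9.21 ± 1.27 (adjusted p = 0.000800), with 1.11, 0.675 and 0.517 CPM in Kit+ K5+, 0.423, 0.105 and 0.146 in Kit+ K5- and 0.125, 0 and 0 in Kit- K5+ libraries, against 9.64, 17.6 and 6.02 CPM in Kit- K5- libraries. C1qtnf2, a secreted C1q-related protein, stood at 7.96 ± 1.57, Rbp4, the plasma carrier of retinol, at 7.59 ± 1.75, and Tmem132e, a transmembrane protein, at 7.28 ± 1.46. Gfra2, the co-receptor for neurturin, stood at 7.04 ± 0.87, the growth factor gene Bmp6 at 7.02 ± 1.41, the angiotensin receptor gene Agtr1a at 6.98 ± 1.07 and Slitrk5 at 6.72 ± 1.42. Outside Kit- K5-, the group means of these 10 genes were low, and in Gfra2 the single libraries reached 9.64 CPM for Kit+ K5+, against 144, 173 and 81.6 CPM in Kit- K5- cells. Few counts stand behind several of these folds. Kit- K5+ libraries had 1, 0 and 0 counts for both Cpa1 and C1qtnf2. They had 0, 1 and 1 counts for Tmem132e, 3, 0 and 1 for Bmp6 and 3, 1 and 0 for Agtr1a. For Rbp4 the Kit+ K5- libraries had 1, 0 and 0 counts. The sizes of these folds are therefore uncertain too. The calls of Hbb-y, Rbp4 and Slitrk5 did not hold without every single library.

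Mesenchyme genes, which mark cells outside the epithelium, had positive interactions. Of 20 tested, 16 were called positive and 0 negative, and 20 lay above 0, with a median of 4.77. Kit- K5- was the group apart for 20 of 20, against 46.5% of all genes tested. Col3a1, a fibrillar collagen, had 120.0, 156 and 100.1 CPM in Kit+ K5+, 154, 37.8 and 90.6 in Kit+ K5- and 97.8, 132 and 96.4 in Kit- K5+ libraries, against 5418, 5239.7 and 3338 CPM in Kit- K5- libraries. The 3 other groups overlapped one another and lay far below. Its interaction was 5.84 ± 0.57 (adjusted p = 6.06e-05). Col1a2 stood at 5.42 ± 0.53, the fibronectin gene Fn1 at 4.18 ± 0.39, and Pdgfra, a receptor of mesenchymal cells, at 5.65 ± 0.63. Of the double positive term these genes had little, at 0.31 ± 0.32 for Col3a1 and 0.004 ± 0.37 for Pdgfra. The list summed to 758 to 1042 CPM in Kit+ K5+ libraries, 565 to 1176 in Kit+ K5- libraries and 965 to 1225 in Kit- K5+ libraries, against 15076 to 25145 in Kit- K5- libraries. In bulk RNA, more cells of a type and more RNA per cell cannot be told apart. No marker of the list was at 0 in any whole group. The 16 calls were 16 to 18 without any 1 library, and 17 without the 3 libraries that were highest in olfactory and vomeronasal receptor genes, described below. Without library numbers 5 to 8 they were 11.

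Other genes high in Kit- K5- encode signals and matrix of branching glands. Fgf10, the mesenchymal growth factor of salivary branching, had 5.26, 6.56 and 4.01 CPM in Kit+ K5+, 3.91, 1.26 and 3.93 in Kit+ K5- and 2.13, 6.73 and 10.9 in Kit- K5+ libraries, against 154, 180.4 and 119.9 CPM in Kit- K5- libraries, an interaction of 5.37 ± 0.70 (adjusted p = 0.000509). Spry4, a feedback inhibitor of that pathway, stood at 2.57 ± 0.40 and was likewise highest in Kit- K5-. In the same FGF and ERK response list of 20 genes, Etv4, a transcription factor induced by FGF, Dusp6, a phosphatase of ERK, and Fgfbp1, an FGF carrier, had negative values of -1.90 ± 0.50, -1.23 and -1.71 ± 0.44. The list thus had 2 positive and 3 negative calls and a median of -0.15, close to that of all genes. The calls of Etv4, Dusp6 and Fgfbp1 held without 1, 3 and 2 of the 12 single libraries, and the list had 0 negative calls in 8 of those 12 settings.

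The growth factor gene Bmp4 (4.02 ± 0.76) and its receptor gene Bmpr1b (3.13 ± 0.72) were the 2 positive calls among 19 BMP and TGF-beta genes, with 0 negative. Aldh1a2, which makes retinoic acid, and Crabp1, which binds it, were the 2 among 13 retinoic acid genes, at 4.77 ± 0.99 and 3.77 ± 0.79. Aldh1a2 varied between runs, at 5.11, 8.21 and 1.51. Of 17 Wnt genes, Sfrp2, a secreted antagonist, was positive at 3.80 ± 0.76 and Rnf43, which removes Wnt receptors from the cell surface, negative at -2.40 ± 0.29 (adjusted p = 0.000262). Rnf43 was among the steadiest genes, with 47.4, 48.4 and 49.1 CPM in Kit+ K5+, 39.4, 51.2 and 53.01 in Kit+ K5- and 43.4, 44.6 and 41.5 in Kit- K5+ libraries, against 7.48, 7.74 and 9.19 CPM in Kit- K5- libraries. Heyl, a target of Notch, was the single call among 12 Notch genes at 4.05 ± 0.90. The calls of Bmpr1b and Heyl held without 6 and 8 of the 12 single libraries. None of 10 Hedgehog genes passed in edgeR's test, against 4.02% of all genes tested, and 5 of them had an unadjusted p under 0.05. Their co-receptor Cdon, with the highest mean, stood at 1.1 ± 0.43 (adjusted p = 0.174), and DESeq2 called 2 of the 10.

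Among 23 basement membrane genes, those of Nid1, Nid2 and Lama2 were positive and that of Lama3 negative, with a median of -0.21. Nid2, a nidogen that links laminin and collagen IV, had 16.2, 24.01 and 23.8 CPM in Kit+ K5+, 17.4, 7.58 and 21.3 in Kit+ K5- and 17.5, 16.6 and 17.6 in Kit- K5+ libraries, against 641, 675 and 412 CPM in Kit- K5- libraries. Its interaction of 5.53 ± 0.47 was among the 10 smallest p (adjusted p = 2.99e-05), and Nid1 stood at 4.35 ± 0.56. Lama3, the laminin chain under stratified and ductal epithelium, followed another pattern that is described below.

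Summed erythroid, neuron and endothelial markers were also highest in Kit- K5-, without overlap. The sums of Schwann and glia, skeletal muscle and melanocyte markers were not. All 7 erythroid and 10 of 10 neuron genes had Kit- K5- as the group apart. So did 9 of 15 leukocyte, 5 of 9 endothelial, 6 of 9 Schwann and glia, 3 of 4 skeletal muscle and 0 of 3 melanocyte genes. Of all genes tested, 46.5% had Kit- K5- as the group apart, and 4.02% were called for the interaction. Sums follow the genes of highest level, such as Erbb3 and Myh3. Gene by gene, the double negative term had a median of 1.59 in Schwann and glia, 2.27 in skeletal muscle and 3.98 in leukocyte genes. In leukocyte genes the double positive term was below 0 in 15 of 15, with a median of -2.05, opposite in sign to that of the double negative term. Erythroid genes had 3 positive calls of 7 tested, the globin genes Hbb-bs, Hbb-bt and Hbb-y, which are close paralogs, and summed to 16.6 to 18.99 CPM in Kit+ K5+ libraries, 11.4 to 22.2 in Kit+ K5- libraries and 12.4 to 25.6 in Kit- K5+, against 137 to 785 CPM in Kit- K5- libraries. Neuron genes had 1 of 10, and summed to at most 18.2 CPM in the Kit+ K5+, Kit+ K5- and Kit- K5+ libraries, against 101 to 239 CPM in Kit- K5- libraries. Leukocyte and macrophage genes had 0 of 15 calls, with Cd68 at 0.43 ± 0.40, and summed to 51.6 to 62.96 CPM in Kit+ K5+ libraries, 103 to 625 in Kit+ K5- libraries and 60.1 to 72.4 in Kit- K5+, against 249.9 to 1442 in Kit- K5- libraries. Hbb-bt alone had 3.41, 3.09 and 1.16 CPM in Kit+ K5+, 2.96, 2.11 and 1.60 in Kit+ K5- and 3.25, 0.687 and 1.53 in Kit- K5+ libraries, against 147, 21.3 and 19.1 CPM in Kit- K5- libraries, and its interaction was 5.27 ± 1.12. The Hbb-bs call held without 5 of the 12 single libraries and that of Hbb-y without 10. Unadjusted, 1 leukocyte gene had a p under 0.05, and DESeq2 called 0. Endothelium had 0 of 9 calls, 2 with an unadjusted p under 0.05 and 1 called by DESeq2, with Emcn at 0.44 ± 1.59. It summed to at most 34.2 CPM in the Kit+ K5+, Kit+ K5- and Kit- K5+ libraries, against 56.97 to 76.99 in Kit- K5- libraries. Schwann and glia genes had 0 of 9, 4 with an unadjusted p under 0.05 and 0 called by DESeq2, with Erbb3 at -0.84 ± 0.32, and summed to 462 to 474 CPM in Kit+ K5+ libraries, 456 to 473 in Kit+ K5- libraries and 269 to 550.5 in Kit- K5+, against 198 to 304 in Kit- K5- libraries. Skeletal muscle genes had 0 of 4 by edgeR and by DESeq2, 1 with an unadjusted p under 0.05, with Myh3 at -1.79 ± 1.23, and melanocyte genes 0 of 3 by both, 0 with an unadjusted p under 0.05, with Mitf at -0.75 ± 0.75. Summed skeletal muscle genes overlapped between all 4 groups, at 28.6 to 32.9 CPM in Kit- K5- libraries. Summed melanocyte genes were at 4.89 to 9.17 CPM in Kit+ K5+ libraries, 6.21 to 23.9 in Kit+ K5- libraries and 8.38 to 11.8 in Kit- K5+, against 9.49 to 13.6 in Kit- K5- libraries. The part of other cell types in the positive interactions was not tested.

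Epithelial genes had the opposite sign. Of 25 general epithelial genes, 8 were called negative and 0 positive, and 25 of 25 lay below 0, with a median of -1.53. Epcam, an adhesion molecule of simple epithelia on chromosome 17 at 87635979 to 87651129, had 589.7, 398 and 438 CPM in Kit+ K5+, 446, 406 and 382 in Kit+ K5- and 338, 417 and 318 in Kit- K5+ libraries, against 64.8, 87.4 and 119 CPM in Kit- K5- libraries. Kit- K5- libraries lay below the other 9, which overlapped. Its interaction was -1.78 ± 0.33 (adjusted p = 0.00789). Esrp1, a splicing factor of epithelial cells, stood at -1.90 ± 0.30 and Spint2, a protease inhibitor of epithelial surfaces, at -2.40 ± 0.43, and Grhl2, St14, Elf3 and Lsr also passed, of which the Elf3 call held without 2 of the 12 single libraries and the Lsr call without 0. The list summed to 2129.5 to 4187 CPM in Kit+ K5+ libraries, 2033 to 3626 in Kit+ K5- libraries and 2133 to 2371 in Kit- K5+ libraries, against 602 to 783 in Kit- K5- libraries. When libraries were scaled to these 25 genes, their median was 0.02 by construction and that of all genes 1.56. The calls numbered 4 without Kit- K5- replicate 1, 5 without Kit+ K5+ replicate 3, without Kit+ K5- replicate 1 or without replicate 2 of any group, and 0 without library numbers 5 to 8.

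The promoters of Epcam and Elf3, an epithelial ETS factor, are shown because these genes shared a negative interaction, with the E-box CACCTG (or CAGGTG on the other strand) and the site AACCGG of grainyhead-like factors in capitals. They are RefSeq windows on GRCm38.p6, written 5′ to 3′ on the gene's strand, and 4 of the 8 called genes had one. Elf3 is on the minus strand of chromosome 1 and Epcam on the plus strand of chromosome 17.
Epcam, chr17:87635729-87636028: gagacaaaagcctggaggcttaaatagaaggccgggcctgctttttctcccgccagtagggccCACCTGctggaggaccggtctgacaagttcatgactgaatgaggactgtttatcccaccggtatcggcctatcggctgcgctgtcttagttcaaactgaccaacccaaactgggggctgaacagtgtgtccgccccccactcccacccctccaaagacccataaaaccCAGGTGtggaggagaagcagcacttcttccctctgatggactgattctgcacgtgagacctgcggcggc
Elf3, chr1:135258423-135258722: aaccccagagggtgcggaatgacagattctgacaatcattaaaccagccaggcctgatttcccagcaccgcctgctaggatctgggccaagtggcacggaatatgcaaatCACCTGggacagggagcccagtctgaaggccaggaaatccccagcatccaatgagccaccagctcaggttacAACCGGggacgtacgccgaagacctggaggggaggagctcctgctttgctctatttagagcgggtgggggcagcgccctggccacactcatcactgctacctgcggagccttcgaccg
The E-box stood in 4 of the 4 windows, those of Elf3, Epcam, Lsr and Spint2, against 20.2% of 32851 promoter windows of the same length. The grainyhead-like site stood in 1 of the 4, that of Elf3, against 6.83% of all windows. These are matches of letters, with no test behind them. E-boxes of this form are bound by repressors of epithelial genes such as Snai1 and Zeb1, and grainyhead-like factors such as Grhl2 keep such genes active.

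Junction genes had mostly negative calls. Of 13 desmosome and stratified epithelium genes, 4 were negative and 0 positive, with a median of -2.10. Dsp, the plaque protein desmoplakin, had 546, 494 and 545 CPM in Kit+ K5+, 475, 499 and 409 in Kit+ K5- and 843, 626 and 559 in Kit- K5+ libraries, against 111, 140.1 and 162 CPM in Kit- K5- libraries, an interaction of -2.10 ± 0.29 (adjusted p = 0.000774). Dsc2, a desmosomal cadherin, had 51.8, 56.7 and 51.2 CPM in Kit+ K5+, 32.02, 55.6 and 38.3 in Kit+ K5- and 135, 139 and 88.6 in Kit- K5+ libraries, against 8.72, 15.4 and 19.8 CPM in Kit- K5- libraries, so that Kit- K5+ libraries were the highest and Kit- K5- libraries the lowest. Its interaction was -2.71 ± 0.42 (adjusted p = 0.00230), and its other 3 groups were called unequal (adjusted p = 0.0302). Perp and Dsg2 were the further calls. Of 19 claudin and occludin genes, Cldn8, a claudin of tight duct epithelium (-2.51 ± 0.61), and F11r, a junctional adhesion molecule (-1.61 ± 0.40), were negative and Cldn15 positive. The median of the 19 was -1.61, and 4 lay above 0. The calls of Cldn8, F11r and Cldn15 held without 2, 5 and 2 of the 12 single libraries. Kit- K5+ was the low group apart for Cldn15, with 2, 7 and 3 counts. No library had more than 60 counts of this gene, so its level was low throughout.

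Lists of gland cell types had calls of both signs. Of 18 basal duct genes, 4 were negative, the keratin gene Krt17 (-3.43 ± 0.74), the integrin genes Itga6 (-2.32 ± 0.44) and Itgb4 (-2.32 ± 0.45), and Lama3, and 0 positive, with a median of -2.05. The Krt17 call held without 6 of the 12 single libraries. Kit- K5+ was the group apart for 10 of the 18 and Kit- K5- for 7, against 22.1% and 46.5% of all genes tested. Itga6, which pairs with Itgb4 in hemidesmosomes, had 510.0, 477 and 524 CPM in Kit+ K5+, 279.8, 416 and 389.9 in Kit+ K5- and 1284, 878 and 408 in Kit- K5+ libraries, against 108, 133 and 127 CPM in Kit- K5- libraries, with Kit- K5+ replicates 1 and 2 the highest. Trp63, the basal transcription factor, had 75.4, 279.8 and 314 CPM in Kit+ K5+, 30.96, 282 and 346 in Kit+ K5- and 460.4, 488 and 299.8 in Kit- K5+ libraries, against 14.03, 89.03 and 99.8 CPM in Kit- K5- libraries, and its interaction of -2.60 ± 1.08 did not pass (adjusted p = 0.211). The low libraries of Trp63 in 3 of the groups were those of replicate 1.

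Of 17 luminal duct genes, Tfcp2l1 and Elf3 (-1.83 ± 0.46) were negative and 0 positive, with a median of -1.38. Of 16 distal end bud genes, Sox9, a progenitor factor (-1.47 ± 0.37), Etv4 and Fgfbp1 were negative and Gata6 positive (4.20 ± 0.81). Gata6 had 0.646, 1.25 and 0.775 CPM in Kit+ K5+, 2.32, 0.316 and 0.583 in Kit+ K5- and 1.88, 1.51 and 1.34 in Kit- K5+ libraries, against 34.9, 35.5 and 37.2 CPM in Kit- K5- libraries, so that the high group was Kit- K5-. The Gata6 call held without every single library, those of Sox9, Etv4 and Fgfbp1 without 3, 1 and 2 of 12, and the list had 0 negative calls in 6 of the 12 settings. Of 14 muscarinic and neuregulin receptor genes, Chrm3, the muscarinic receptor of secretory cells, was negative (-3.75 ± 0.80) and Gfra2 positive. Chrm3 had 32.7, 17.5 and 20.8 CPM in Kit+ K5+, 18.9, 18.9 and 19.8 in Kit+ K5- and 104, 31.6 and 12.2 in Kit- K5+ libraries, against 3.54, 2.30 and 3.06 CPM in Kit- K5- libraries, with Kit- K5+ replicate 1 far above the other libraries of its group. Of 16 salivary secreted protein genes, Dcpp1, Dcpp2 and Dcpp3, which encode demilune cell proteins, were negative at -4.24 ± 0.96, -3.75 ± 0.94 and -3.85 ± 0.96, and 0 were positive. These 3 genes are near-identical copies among which reads may be split, and their values within runs spread widely, at -6.61, -3.08 and -1.29 for Dcpp1. Their calls held without 7, 3 and 3 of the 12 single libraries. Without the 3 libraries highest in olfactory and vomeronasal receptor genes, 0 salivary secreted genes were called and their median was 0.72.

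Of 14 myoepithelial and contractile genes 0 were called, against 4.02% of all genes tested. Kit- K5+ was the group apart for 11 of the 14, against 22.1% of all genes tested, and 14 of 14 had a double positive term below 0. Tpm1, the tropomyosin gene with the highest mean, stood at -0.40 ± 0.31, 2 of the list had an unadjusted p under 0.05, and DESeq2 called 2. Of 10 tuft cell genes, Trpm5, a taste-signalling channel, was positive at 3.56 ± 0.93 and 0 were negative, with a median of 0.82 and 7 above 0. The Trpm5 call was one that held without 2 of the 12 single libraries. Trpm5 was highest in Kit- K5- libraries, at 856, 982 and 498 counts, against 4 to 64 in the other libraries. The summed list went the other way, at 511 to 781 CPM in Kit- K5- libraries, against 1000 to 2117 in the others. Its member Pou2f3, described below, was also lowest in Kit- K5- cells.

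**Figure D2:**
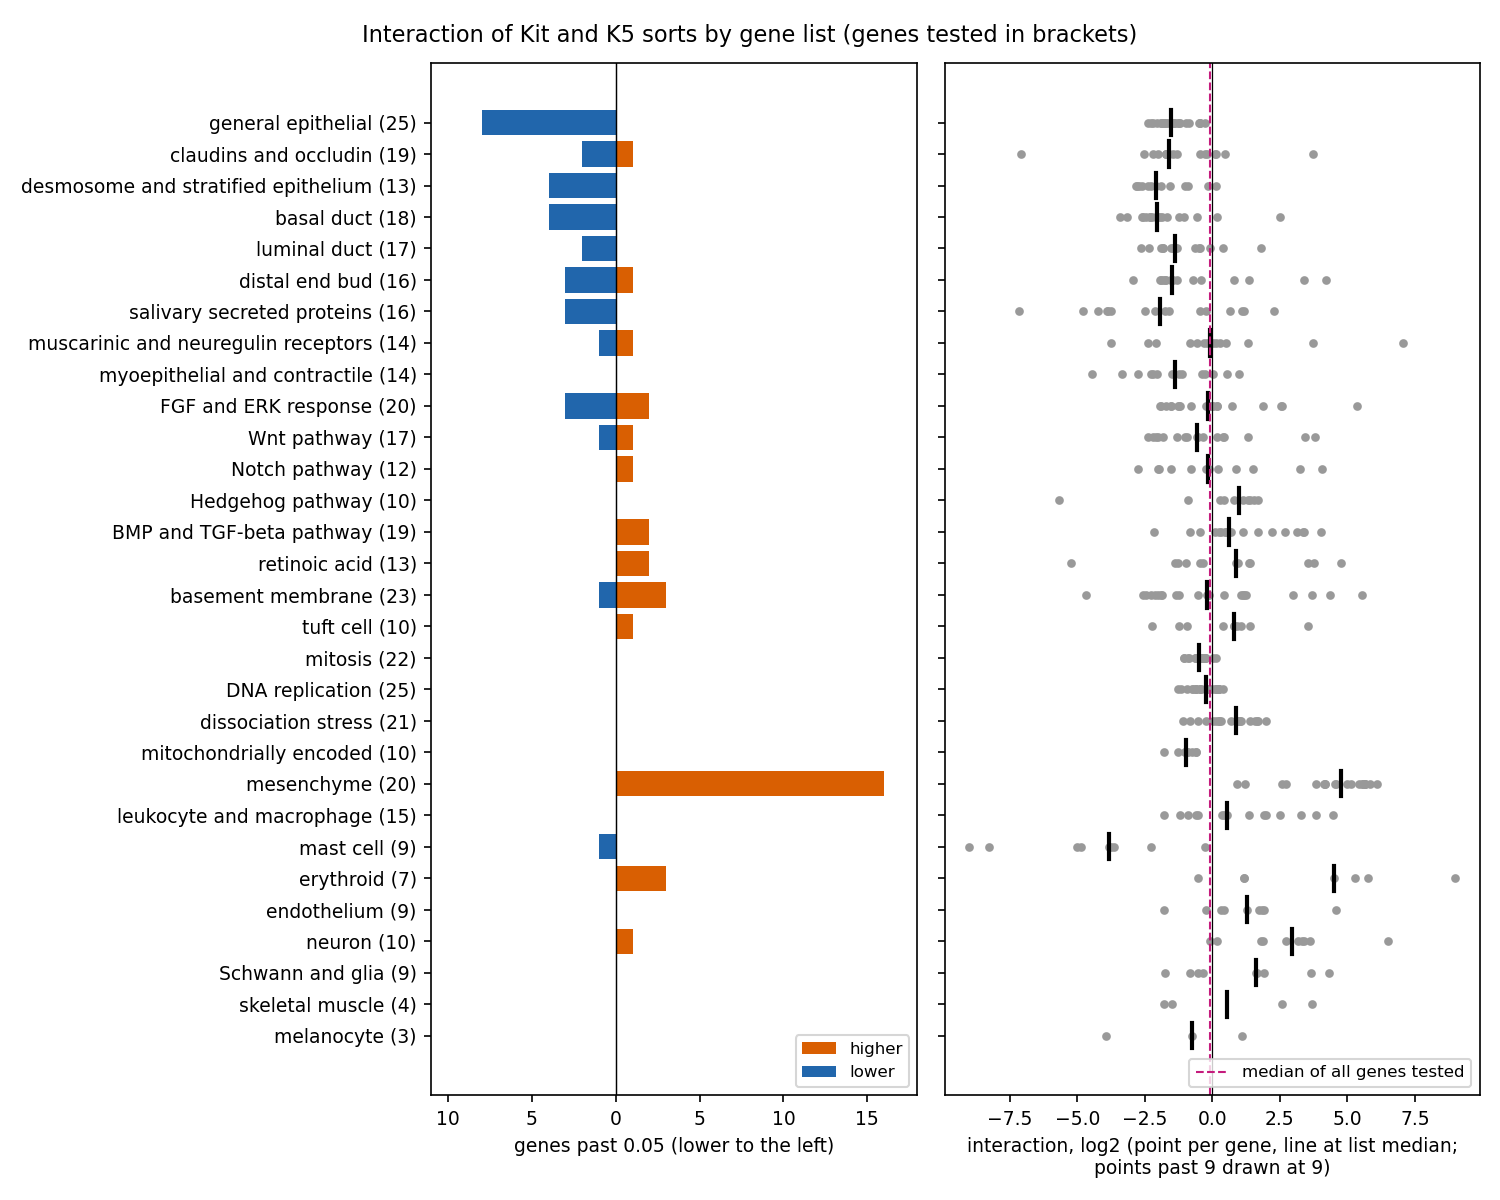
Genes called for the interaction in each of 30 gene lists (left, positive calls to the right and negative calls to the left of 0) and the log2 interaction of every gene tested (right, 1 point per gene, black line at the list's median, dashed line at the median of all genes). Mesenchyme genes have 16 positive calls and a median of 4.77, and general epithelial genes 8 negative calls and a median of -1.53. Some lists share genes.

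Of the 46 genes whose other 3 groups were called unequal, 25 still had Kit- K5- as the group apart (54.3%, against 46.5% of all genes tested). Kit- K5+ was the group apart for 14 (30.4%, against 22.1%). Kit+ K5- was so for 5 (10.9%, against 14.9%) and Kit+ K5+ for 2 (4.35%, against 16.5%). Both calls held without any 1 library for 3 of the 46, Tfcp2l1, Timp2 and Zim1. The interaction call alone did so for 27. The count of 46 was 6 without Kit- K5+ replicate 1, 12 without Kit- K5+ replicate 2, 15 without Kit+ K5+ replicate 2, 20 without Kit- K5- replicate 2, 23 without Kit+ K5+ replicate 3, 24 without Kit+ K5+ replicate 1, and also 30 without Kit- K5- replicate 1.

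Tfcp2l1, a transcription factor of the CP2 family that is expressed in ducts, had the smallest p for inequality. It lies on chromosome 1 at 118627945 to 118685168. It had 116, 88.6 and 92.9 CPM in Kit+ K5+, 70.3, 67.2 and 56.8 in Kit+ K5- and 290.4, 536 and 511 in Kit- K5+ libraries, against 40.8, 68.6 and 63.9 CPM in Kit- K5- libraries. All 3 Kit- K5+ libraries lay above the other 9, and Kit- K5- libraries were at the level of Kit+ K5- libraries. The interaction was -2.34 ± 0.37 (adjusted p = 0.00230), -2.11, -2.57 and -2.29 in the 3 runs, and the other 3 groups were unequal (adjusted p = 0.000348). On the Kit+ side its K5 difference was 0.61 ± 0.26 (adjusted p = 0.688), and on the Kit- side 2.95 ± 0.27 (adjusted p = 1.23e-05).

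Further genes were highest in Kit- K5+ cells. Lama3 had 19.5, 26.9 and 27.6 CPM in Kit+ K5+, 5.71, 11.6 and 16.7 in Kit+ K5- and 205, 83.8 and 66.95 in Kit- K5+ libraries, against 6.95, 12.3 and 8.37 CPM in Kit- K5- libraries, with no Kit- K5+ library as low as any other. Its interaction of -2.56 ± 0.62 passed (adjusted p = 0.0336), as did inequality (adjusted p = 0.00714), but the interaction call held without 4 of the 12 single libraries. Tgm2, a protein cross-linking enzyme, had 20.8, 46.2 and 28.3 CPM in Kit+ K5+, 18.1, 37.9 and 29.1 in Kit+ K5- and 163, 123 and 88.4 in Kit- K5+ libraries, against 14.6, 27.7 and 30.02 CPM in Kit- K5- libraries, an interaction of -2.21 ± 0.52. The integrin gene Itgb6 had 4.15, 3.47 and 2.71 CPM in Kit+ K5+, 4.02, 3.79 and 2.91 in Kit+ K5- and 13.8, 23.8 and 17.98 in Kit- K5+ libraries, against 1.44, 2.83 and 4.29 CPM in Kit- K5- libraries, an interaction of -2.75 ± 0.63, and Kit- K5+ was again the single high group. The calls of Tgm2 and Itgb6 held without 4 and 6 of the 12 single libraries. Abca13, an ABC transporter, stood at -3.65 ± 0.75, with 1.84, 1.45 and 2.84 CPM in Kit+ K5+, 3.91, 2.001 and 4.37 in Kit+ K5- and 14.6, 5.50 and 13.4 in Kit- K5+ libraries, against 1.64, 1.46 and 1.33 CPM in Kit- K5- libraries. For Abca13 both calls held without 1 of the 12 single libraries. Ntng1, a netrin-G, had the same high group, as did the predicted genes Gm15608 and Gm4117.

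Another set was lowest in Kit- K5+ cells, with Kit- K5- among or above the Kit+ groups. Bahcc1, a BAH-domain protein, on chromosome 11 at 120232947 to 120292296, had 94.8, 104 and 82.04 CPM in Kit+ K5+, 46.9, 56.8 and 85.3 in Kit+ K5- and 31.4, 32.8 and 32.1 in Kit- K5+ libraries, against 86.1, 76.00 and 85.9 CPM in Kit- K5- libraries. The 3 Kit- K5+ libraries were nearly equal and below all others. Its interaction was 1.94 ± 0.31 (adjusted p = 0.00293), and its double negative term, 0.53 ± 0.17, was smaller than its double positive term, 1.06 ± 0.18. Cd44, the hyaluronan receptor, had 162, 103 and 106 CPM in Kit+ K5+, 138, 82.99 and 65.4 in Kit+ K5- and 29.9, 16.2 and 20.7 in Kit- K5+ libraries, against 219, 70.6 and 61.2 CPM in Kit- K5- libraries, with Kit- K5- replicate 1 far above replicates 2 and 3. The Cd44 interaction was 2.76 ± 0.63 (adjusted p = 0.0262), and the call held without 8 of the 12 single libraries. Spire1, an actin nucleator, had 70.7, 50.6 and 71.1 CPM in Kit+ K5+, 44.5, 37.4 and 52.9 in Kit+ K5- and 22.9, 25.8 and 23.9 in Kit- K5+ libraries, against 42.2, 47.96 and 49.3 CPM in Kit- K5- libraries, an interaction of 1.46 ± 0.30. Elovl6, which elongates fatty acids, had 89.4, 79.7 and 77.7 CPM in Kit+ K5+, 67.3, 67.3 and 84.04 in Kit+ K5- and 41.4, 38.1 and 45.5 in Kit- K5+ libraries, against 115, 122 and 89.6 CPM in Kit- K5- libraries, an interaction of 1.56 ± 0.27. Kit- K5+ was the low group in both, without overlap. Urb2 (1.31 ± 0.33), a factor of ribosome assembly, and Pde9a (2.50 ± 0.52), a phosphodiesterase of cyclic GMP, were likewise lowest in Kit- K5+. So were Heg1, an endothelial and epithelial membrane protein (1.93 ± 0.41), and the kinase gene Prkca (1.55 ± 0.40), although for them inequality of the 3 other groups did not pass (adjusted p = 0.0738 and 0.0530). Kit+ K5- was the low group apart for Zcchc5 (3.14 ± 0.69) and the survival gene Bcl2 (1.19 ± 0.29), neither of which passed for inequality (adjusted p = 0.0958 and 0.0865). The calls of Urb2, Prkca and Bcl2 held without 3, 2 and 2 of the 12 single libraries.

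In a further set the levels formed a step, low in both Kit+ groups, intermediate in Kit- K5+ and highest in Kit- K5-. Zim1, an imprinted zinc finger gene on chromosome 7 at 6671269 to 6696450, had 13.8, 17.4 and 27.4 CPM in Kit+ K5+, 11.5, 10.1 and 13.4 in Kit+ K5- and 40.5, 59.6 and 56.1 in Kit- K5+ libraries, against 456, 374 and 374 CPM in Kit- K5- libraries. No library of one of these 3 levels overlapped the next. Its interaction was 3.69 ± 0.36 (adjusted p = 6.06e-05), 3.74, 3.41 and 3.75 in the 3 runs, and inequality passed (adjusted p = 0.00394). Timp2, an inhibitor of metalloproteases, had 45.3, 41.7 and 54.9 CPM in Kit+ K5+, 19.7, 25.3 and 34.2 in Kit+ K5- and 142, 113 and 92.97 in Kit- K5+ libraries, against 236, 262 and 233 CPM in Kit- K5- libraries, an interaction of 1.92 ± 0.32 with 1.92, 1.93 and 2.01 in the 3 runs. H19, an imprinted long noncoding RNA, had 201, 330.1 and 363 CPM in Kit+ K5+, 195, 289 and 258 in Kit+ K5- and 907, 614 and 841 in Kit- K5+ libraries, against 3483, 2834 and 2335 CPM in Kit- K5- libraries, an interaction of 2.14 ± 0.36 (adjusted p = 0.00430). The 2 imprinted genes and Timp2 thus share the order of groups, and their adjusted p for inequality was at most 0.0138. The kinase gene Nrk (4.03 ± 0.44), the protocadherin gene Fat4 (2.85 ± 0.51), the matrix genes Postn (2.72 ± 0.48) and Col5a1, and Wisp1, a matricellular target of Wnt (2.37 ± 0.61), had the same order. Postn and Col5a1 are also in the mesenchyme list. The sums of that list, given above, stood apart in Kit- K5- but overlapped between the other groups, without such a step. Plekhh2 (1.56 ± 0.40) and Nhsl2 (2.64 ± 0.40) had intermediate Kit- K5+ levels as well. The calls of Wisp1 and Plekhh2 held without 4 and 2 of the 12 single libraries.

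Lpar4, a receptor for lysophosphatidic acid, had 10.1, 14.1 and 7.62 CPM in Kit+ K5+, 2.43, 3.58 and 3.495 in Kit+ K5- and 16.00, 9.07 and 15.7 in Kit- K5+ libraries, against 64.9, 60.2 and 50.9 CPM in Kit- K5- libraries, an interaction of 3.85 ± 0.45 (adjusted p = 0.000245), and Kit+ K5- was its lowest group.

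**Figure D3:**
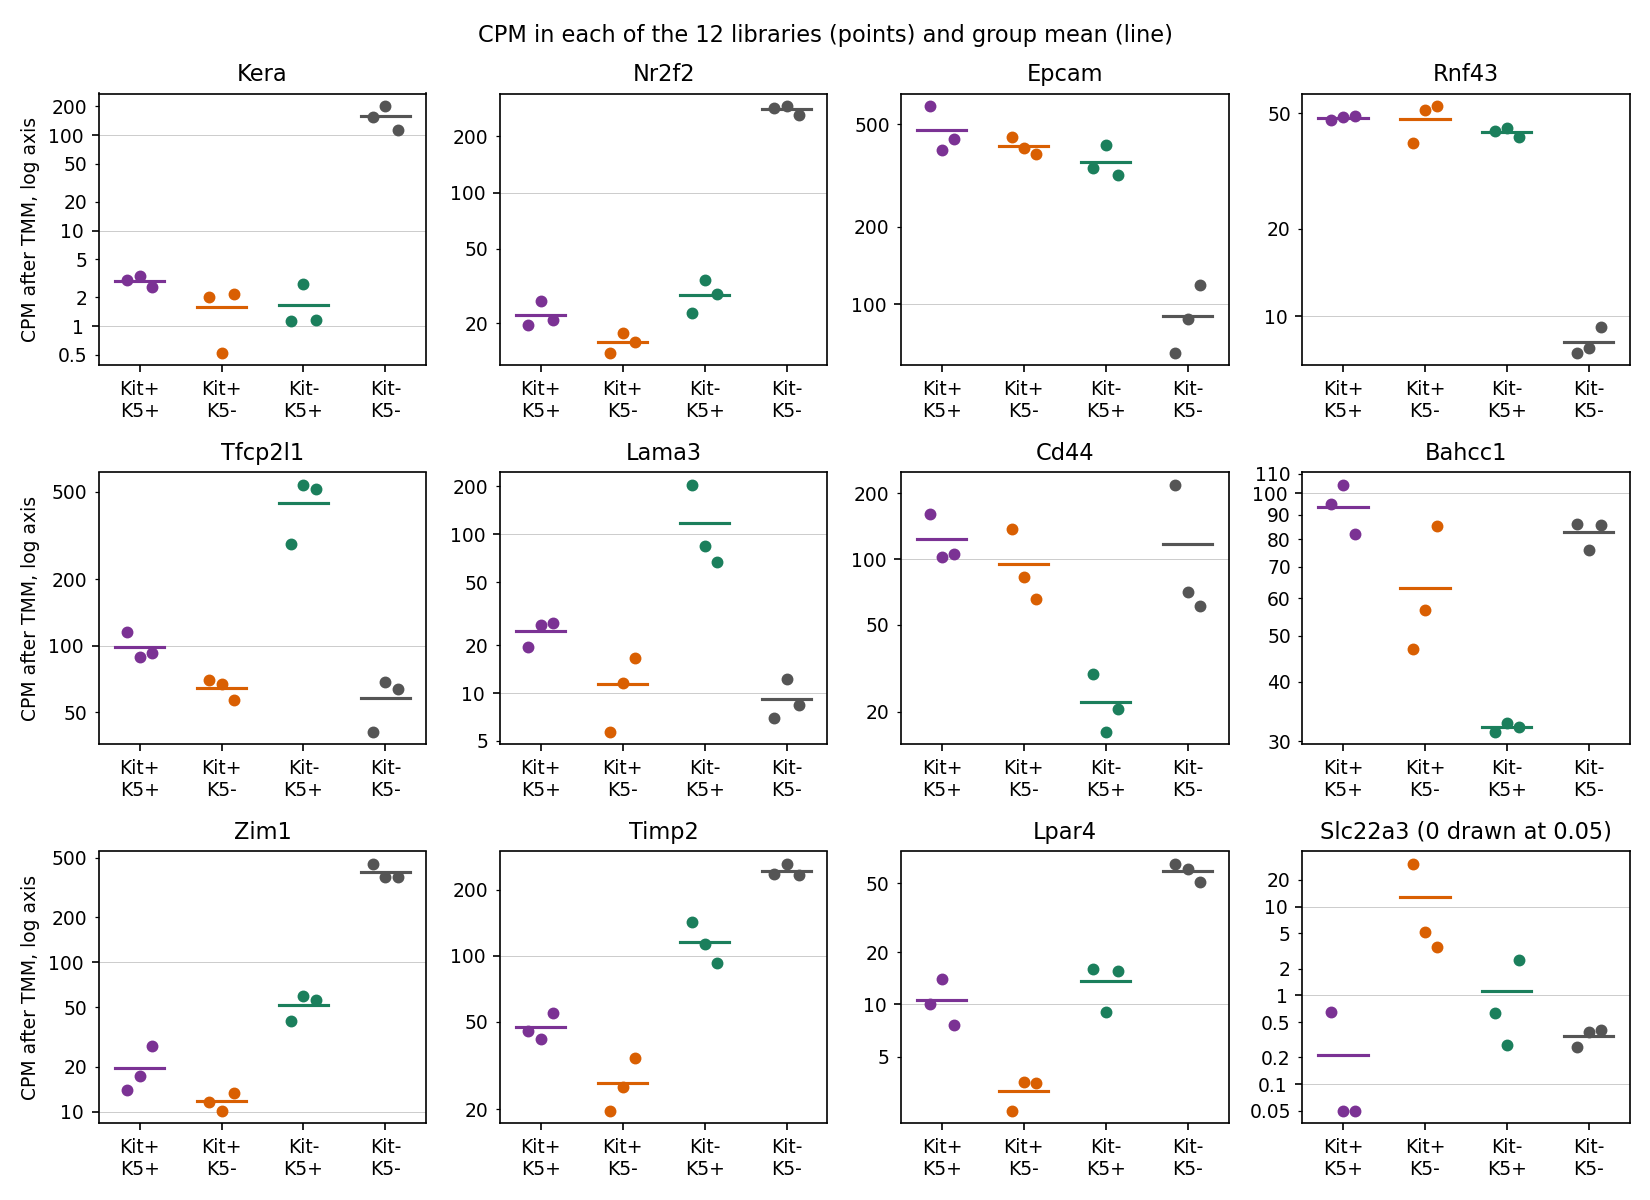
CPM of 12 genes in the 12 libraries (points, replicates 1 to 3 from left to right) with group means (lines), on log axes, a value of 0 drawn at 0.05. In Kera, Nr2f2, Epcam and Rnf43 Kit- K5- cells stand farthest from the other groups. In Tfcp2l1 and Lama3 Kit- K5+ is the high group and in Cd44 and Bahcc1 the low one. Zim1 and Timp2 step up from Kit+ to Kit- K5+ to Kit- K5- cells. Lpar4 is lowest in Kit+ K5- cells, and Slc22a3 is high in them.

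Kit+ K5- was the high group for the 3 largest negative interactions with at least 10 CPM. Mast cells, which carry Kit, express Mcpt4. Mcpt4, a mast cell chymase on chromosome 14 at 56059629 to 56062313, had 0 CPM in all Kit+ K5+ libraries, 65.6, 4.21 and 4.95 CPM in Kit+ K5- and 0.875, 0.275 and 0 CPM in Kit- K5+ libraries, against 0 CPM in all Kit- K5- libraries. Its fitted value of -15.90 rests on the groups at 0. With 3 counts over the group set in place of each group's 0, it was -10.50. Slc22a3, an organic cation transporter, had 0.646, 0 and 0 CPM in Kit+ K5+, 30.2, 5.16 and 3.495 in Kit+ K5- and 0.625, 0.275 and 2.49 in Kit- K5+ libraries, against 0.262, 0.383 and 0.408 CPM in Kit- K5- libraries, an interaction of -7.34 ± 1.70 (adjusted p = 0.0270). Adora3, an adenosine receptor, stood at -8.24 ± 2.12 (adjusted p = 0.0455), but of its Kit+ K5- libraries replicate 1 had 53.5 CPM and replicates 2 and 3 had 1.79 and 0.874. The Adora3 call held without 3 of the 12 single libraries and was lost without Kit+ K5- replicate 1, where the value was -4.48. Of Slc22a3 the call held without 5. Lrp2, the endocytic receptor megalin (-5.03 ± 1.09), and Paqr6, a membrane progestin receptor (-3.61 ± 0.93), were also negative, and their calls held without 9 and 3 of the 12 single libraries. For both genes Kit- K5- was the low group apart, and Kit- K5+ replicate 1 was the highest library, at 22.8 CPM for Lrp2 and 20.9 for Paqr6.

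Of 9 mast cell genes tested, 1 passed in edgeR and 0 in DESeq2, and 9 of 9 were below 0 with Kit+ K5- the group apart. The list summed to 4.52 to 51.9 CPM in Kit+ K5+ libraries, 155 to 5577 in Kit+ K5- libraries and 3.57 to 13.8 in Kit- K5+, against 27.9 to 76.7 in Kit- K5- libraries. Cpa3, the mast cell carboxypeptidase, had 2114, 104 and 76.5 CPM in Kit+ K5- libraries, and its interaction of -3.64 ± 2.34 did not pass (adjusted p = 0.438). Without the 3 libraries named above it was 1.14, and the list's median was 0.51 in place of -3.84. A gene of another kind in this set was Cgnl1, the junction protein paracingulin, with 74.99, 164 and 131 CPM in Kit+ K5+, 229.7, 214 and 212 in Kit+ K5- and 77.02, 98.9 and 85.7 in Kit- K5+ libraries, against 49.6, 52.5 and 65.03 CPM in Kit- K5- libraries, and an interaction of -1.47 ± 0.35 (adjusted p = 0.0306). Kit+ K5- was its highest group without overlap. The Cgnl1 call held without 6 of the 12 single libraries.

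Kit+ K5+ stood apart on the low side for the calcium channel gene Cacna1e and the chemokine receptor gene Ccr6 among the 46. Cacna1e had 0.369, 0.289 and 0.388 CPM in Kit+ K5+, 10.8, 1.16 and 6.85 in Kit+ K5- and 4.001, 6.73 and 18.9 in Kit- K5+ libraries, against 2.10, 2.15 and 3.16 CPM in Kit- K5- libraries, and its interaction was -6.11 ± 1.12 (adjusted p = 0.00720). All 5 called genes with Kit+ K5+ as the low group apart had a mean under 10 CPM in their highest group, so that few counts stand behind them. For Ccr6, both calls held without 0 of the 12 single libraries.

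Kit- K5+ was the high group apart for 42 called genes, but 18 of these are predicted genes and 23 had a mean under 10 CPM in the highest group. Of the 42, 17 had no overlap between Kit- K5+ and other libraries, and such a pattern was found in 1.8% of all genes tested. Of the 9 that were neither predicted nor under 10 CPM, 9 had no overlap, and so did 145 of the 729 tested genes of the same kind. The 42 were called on these same libraries, so the counts only describe them. Among the predicted genes were Gm10800 and 8 relatives on chromosomes 2, 9 and 14, all 9 called negative. They share a run of 41 bases, shown in capitals with up to 12 bases on either side as it stands in a GENCODE M21 transcript of each of 3 of them, because reads from a shared run cannot be assigned to 1 copy.
Gm10800: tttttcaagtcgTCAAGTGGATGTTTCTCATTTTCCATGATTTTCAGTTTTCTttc
Gm10801: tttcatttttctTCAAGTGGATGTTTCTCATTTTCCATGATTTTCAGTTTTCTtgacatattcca
Gm21738: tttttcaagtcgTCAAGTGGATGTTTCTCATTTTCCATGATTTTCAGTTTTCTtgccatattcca
The run resembles the major satellite repeat of mouse centromeres, a likeness that was not tested. Gm10800 lies on chromosome 2 at 98666547 to 98667301, Gm10801 on chromosome 2 at 98662237 to 98664083 and Gm21738 on chromosome 14 at 19415857 to 19418930. Gm10800 alone had 202, 159.7 and 161 CPM in Kit+ K5+, 596, 19.8 and 192 in Kit+ K5- and 1354, 591 and 3769 in Kit- K5+ libraries, against 75.3, 39.00 and 81.7 CPM in Kit- K5- libraries, an interaction of -5.49 ± 1.21 (adjusted p = 0.0215).

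The 9 Gm10800 genes summed to 465, 358 and 376 CPM in Kit+ K5+ libraries, 1428, 43.1 and 449 CPM in Kit+ K5- and 3145, 1388 and 8889 CPM in Kit- K5+, against 183, 91.5 and 196 CPM in Kit- K5- libraries. The 1582 olfactory and vomeronasal receptor genes, known from sensory neurons of the nose, summed to 77.7, 76.6 and 78.3 CPM in Kit+ K5+ libraries, 263, 24.8 and 94.2 CPM in Kit+ K5- and 545, 163 and 912 CPM in Kit- K5+, against 57.0, 36.3 and 60.5 CPM in Kit- K5- libraries. The 3 libraries highest in the receptors were thus Kit- K5+ replicates 3 and 1 and Kit+ K5- replicate 1. The same 3 were the highest in the Gm10800 genes. The part of these reads in the genes that are high in Kit- K5+ cells was not tested. Without the 3 libraries, which leaves 1 Kit- K5+ library that is assumed to vary like the others, 533 genes were called, 362 of them among the 684, and negative calls numbered 120 in place of 206. Of the 46 genes with unequal groups, 1 was still called for both. Within each run the Gm10800 interaction was -5.72, -0.92 and -5.78.

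**Figure D4:**
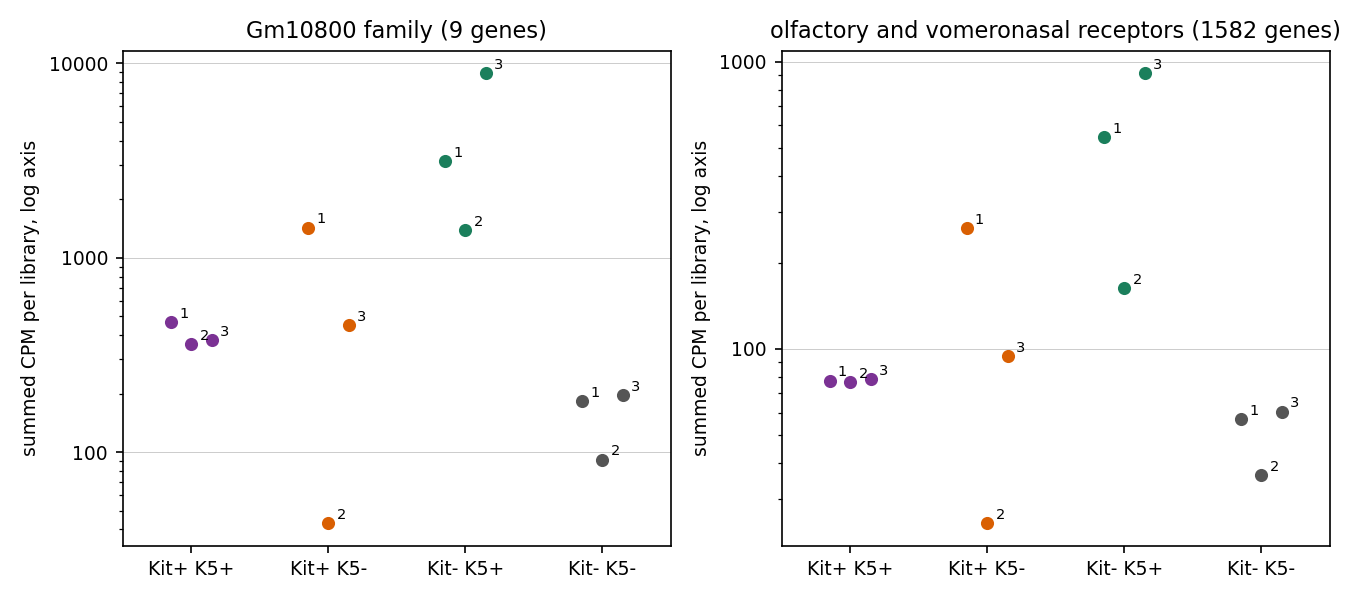
Summed CPM of the 9 Gm10800 genes (left) and of 1582 olfactory and vomeronasal receptor genes (right) in each library, on log axes, with the replicate number beside each point. Kit- K5+ replicates 1 and 3 and Kit+ K5- replicate 1 are the highest in both panels.

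Several lists had no call. Of all genes tested 4.02% were called, and at that share lists this short would hold few calls or none. Of 22 mitosis genes 0 passed, with a median of -0.50 and Mki67, a proliferation marker, at -0.39 ± 0.32, and 5 had an unadjusted p under 0.05. With DESeq2, 1 mitosis gene was called. Kit- K5- was the group apart for 20 of the 22 mitosis genes, against 46.5% of all genes tested. They summed to 5333 to 6572 CPM in Kit+ K5+ libraries, 4257 to 5102 in Kit+ K5- libraries and 3592 to 4523 in Kit- K5+ libraries. In Kit- K5- libraries the sums were lower without overlap, at 2199 to 2589 CPM. Of 25 DNA replication genes 0 passed, with a median of -0.24 and Rrm1, a subunit of ribonucleotide reductase, at -0.47 ± 0.28, 4 having an unadjusted p under 0.05 and DESeq2 calling 1. Of 21 dissociation stress genes 0 passed, with a median of 0.87 and the immediate early gene Egr1 at 0.88 ± 0.45, 4 having an unadjusted p under 0.05 and DESeq2 calling 1. Kit- K5- was the group apart for 17 of these 21, against 46.5% of all genes tested. The list summed to 3099 to 5628 CPM in Kit+ K5+ libraries, 2326 to 5349 in Kit+ K5- libraries and 2789 to 6066 in Kit- K5+ libraries, against 4769.9 to 9779 CPM in Kit- K5- libraries, which held the highest sum within each replicate number. The part of these genes in the interaction was not tested. Of 10 mitochondrially encoded genes 0 passed, with an unadjusted p under 0.05 in 0 and DESeq2 calling 0. mt-Cytb, for cytochrome b, stood at -0.95 ± 0.70. The share of counts in mitochondrial transcripts was 23.7% ± 6.60 in Kit+ K5+ libraries and 17.2% ± 8.81 in Kit+ K5- libraries. It was 27.97% ± 3.32 in Kit- K5+ libraries, against 9.07% ± 3.33 in Kit- K5- libraries (each SD, n = 3). Kit- K5- had the lowest mean share, but its libraries overlapped the Kit+ K5- group. Kit- K5- libraries ranged from 5.59% to 12.2%, while Kit+ K5- replicate 1 was at 10.96%. The part of this share in the interaction was not tested, and 661 of the 684 calls remained when mitochondrial genes were left out.

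Some genes with large differences between sorts had no called interaction. Pou2f3, a POU-domain factor of tuft cells, had 202, 109 and 75.1 CPM in Kit+ K5+, 47.1, 56.1 and 30.4 in Kit+ K5- and 10.002, 10.4 and 1.53 in Kit- K5+ libraries, against 0.787, 1.99 and 0.408 CPM in Kit- K5- libraries. Both Kit+ groups lay above the Kit- groups, and Kit- K5+ replicate 3 overlapped Kit- K5- libraries. The other 3 groups were unequal (adjusted p = 0.0174), while the interaction of -1.24 ± 0.83 did not pass (adjusted p = 0.458). Myb, a transcription factor of proliferating progenitors, had 309.7, 163 and 153 CPM in Kit+ K5+, 130.3, 123 and 99.9 in Kit+ K5- and 68.8, 67.9 and 51.3 in Kit- K5+ libraries, against 13.2, 14.5 and 15.1 CPM in Kit- K5- libraries, without overlap between Kit+ and Kit- libraries, and an interaction of -1.31 ± 0.37 (adjusted p = 0.0631). The receptor gene Erbb3 was likewise unequal (adjusted p = 0.0287) with an interaction of -0.84 ± 0.32 (adjusted p = 0.177). A p that misses 0.05 does not show that these interactions are 0.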

How the data were processed

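RNA of the 12 sorted samples was sequenced as single 50 nt reads, per the labels' protocols. The authors deposited raw read counts per gene symbol. Per the labels and the submitters' processing notes, reads were mapped to GRCm38.p3 with STAR 2.4.2a, handled with Picard 1.129 and counted with featureCounts 1.4.6-p3. Neither the annotation release nor the strand setting is given in the sources used here, so a gene and its antisense partner cannot be told apart.

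Counts were fitted with edgeR 4.0.16 in R 4.3.3 (filterByExpr by group, TMM, quasi-likelihood with 1 coefficient per group and 8 residual degrees of freedom). The interaction was tested two-sided and equality of 3 groups by a joint F-test, which has no direction. Both had Benjamini-Hochberg adjustment over 17030 genes at 0.05. Levels in CPM and CPM sums were computed from these counts. The group apart was the one farthest from the mean of the other 3 on log2 CPM with a prior count of 2. The method was tested on simulated data. Total counts of 5589037 to 13724364 limit what low genes can show. Between replicates of the same group, chi-square per degree of freedom was 25.7 to 89.5, given without a test, so no such pair held identical counts. Alternatives used limma 3.58.1 (voom), DESeq2 1.42.0, other scalings, filters, thinning and left-out libraries.

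The genes, the 30 gene lists and the tests were chosen with earlier results of these data known. Named genes were Kit, Krt5 and Cdh1, the 10 largest interactions in each direction with at least 10 CPM, up to 8 genes of each sign of the double positive term with the smallest p for inequality, and up to 2 per list. A further 46 genes, such as Slitrk6, Nr2f2, Epcam, Nrk and Cgnl1, were added after their values were seen, as were the genes mentioned without values. Some genes that this rule named are not reported here. Positions are from GENCODE M21 and promoters from RefSeq, both on GRCm38. Symbols matched a GENCODE position for 39469 of 43280.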

Additional observations from a re-analysis of the deposited data

Results flagged for a closer look

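The difference between K5+ and K5- cells was not the same among Kit+ cells as among Kit- cells for 684 genes, by edgeR's test of that difference itself. Those named in the text that were called are given here with the log2 interaction, in order of size. Among the genes named, the largest positive values were of Hbb-y at 11.38, Cpa1 at 9.21, C1qtnf2 at 7.96, Rbp4 at 7.59, Kera at 7.49, Tmem132e at 7.28, Gfra2 at 7.04, Bmp6 at 7.02, Agtr1a at 6.98 and Slitrk5 at 6.72. The sizes of several of these rest on groups with few counts, as given above. Next came Slitrk6 at 6.50, Col3a1 at 5.84, Pdgfra at 5.65, Nid2 at 5.53, Col1a2 at 5.42, Fgf10 at 5.37, Hbb-bt at 5.27, Aldh1a2 at 4.77, Hbb-bs at 4.50 and Nid1 at 4.35. Lower but still above 0 were Gata6 at 4.20, Fn1 at 4.18, Zeb1 at 4.12, Heyl at 4.05, Nrk at 4.03, Bmp4 at 4.02, Lpar4 at 3.85, Col5a1 at 3.85, Sfrp2 at 3.80 and Nr2f2 at 3.79. After these came Crabp1 at 3.77, Cldn15 at 3.73, Lama2 at 3.69, Zim1 at 3.69, Trpm5 at 3.56, Zcchc5 at 3.14, Bmpr1b at 3.13, Ptprd at 3.11, Ntrk2 at 2.87 and Fat4 at 2.85. Still smaller were Cd44 at 2.76, Postn at 2.72, Nhsl2 at 2.64, Spry4 at 2.57, Pde9a at 2.50, Wisp1 at 2.37, Lrp1 at 2.26, H19 at 2.14, Bahcc1 at 1.94 and Heg1 at 1.93. The smallest positive values were of Timp2 at 1.92, Elovl6 at 1.56, Plekhh2 at 1.56, Prkca at 1.55, Spire1 at 1.46, Urb2 at 1.31 and Bcl2 at 1.19.

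Among the genes named, the largest negative values were of Mcpt4 at -15.90, Adora3 at -8.24, Ccr6 at -8.09, Slc22a3 at -7.34, Cacna1e at -6.11, Gm10801 at -5.56, Gm10800 at -5.49, Gm21738 at -5.37, Lrp2 at -5.03 and Gm15608 at -4.88. Then came Dcpp1 at -4.24, Gm4117 at -4.13, Dcpp3 at -3.85, Chrm3 at -3.75, Dcpp2 at -3.75, Abca13 at -3.65, Paqr6 at -3.61, Krt17 at -3.43, Perp at -2.81 and Itgb6 at -2.75. Nearer to 0 were Dsc2 at -2.71, Ntng1 at -2.63, Lama3 at -2.56, Cldn8 at -2.51, Spint2 at -2.40, Rnf43 at -2.40, Tfcp2l1 at -2.34, Itga6 at -2.32, Itgb4 at -2.32 and Dsg2 at -2.27. Following these were Tgm2 at -2.21, Dsp at -2.10, Galnt3 at -1.91, Esrp1 at -1.90, Etv4 at -1.90, Elf3 at -1.83, St14 at -1.80, Epcam at -1.78, Grhl2 at -1.72 and Fgfbp1 at -1.71. The negative values nearest to 0 were of F11r at -1.61, Cdh1 at -1.58, Cgnl1 at -1.47, Sox9 at -1.47, Dusp6 at -1.23 and Lsr at -1.18. The values of Mcpt4 and Ccr6 rest on groups with 0 counts, and with 3 counts over each such group they were -10.50 and -5.11. Of the calls named, 56 of 103 held without any 1 library.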

How the results depend on the processing

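Positive and negative calls numbered 803 and 608 with DESeq2, 917 and 1043 with no filter on low counts, and 6984 and 133 after a scaling to general epithelial genes, where the median of all genes was 1.56. The genes among them whose other 3 groups were unequal numbered 266, 579 and 134, against 19 with limma-voom. The double positive term was called for 140, 367 and 3 genes in these settings, for 0 with upper-quartile scaling or library totals alone, and for 2 after thinning to the smallest library. The double negative term had 13786 higher and 33 lower calls with the epithelial scaling, and 1397 lower calls with library totals alone. With RLE scaling 679 of the 684 calls were shared, with DESeq2 681 and with limma-voom 510.

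The labels do not say that library numbers pair the samples. Deviations from group means correlated at 0.0928 to 0.408 within runs, and 17 of 18 pairs exceeded 0.1, which falls short of every pair. All 12 libraries correlated best with their own run, a hint from the data and not the design. With a replicate block there were 824 positive and 594 negative calls, 213 with unequal groups and 36 for the double positive term, and 683 of the 684 were shared. With the block on thinned counts these were 776, 555, 211 and 34.

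Without any 1 library, positive calls ranged from 304 to 517 and negative calls from 66 to 212. Calls with unequal groups ranged from 6 to 53 and those of the double positive term from 0 to 4. Higher and lower calls of the double negative term ranged from 1817 to 3089 and from 1064 to 2250. Negative calls numbered 71, 87 and 116 without Kit+ K5+ replicates 2, 3 and 1, 122 without Kit- K5+ replicate 1, and 66 and 75 without Kit- K5- replicates 1 and 2. Of the 684 calls, 322 held without any 1 library, 273 of them positive.

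Without library numbers 1 to 4 there were 103 negative calls and 11 with unequal groups. Without numbers 5 to 8 there were 80 positive and 7 negative calls, 0 with unequal groups, 0 for the double positive term, and 1509 higher and 601 lower for the double negative term. Without numbers 9 to 12 these were 284 and 59, with 4 unequal, 0 for the double positive term and 1389 lower for the double negative term. Without the 3 libraries highest in olfactory and vomeronasal receptor genes, an alternative chosen after seeing the data, there were 120 negative calls, 3 with unequal groups and 0 for the double positive term. These settings have fewer samples. The causes of the other changes were not tested.

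With the epithelial scaling the interaction changed sign for Cdh1 (0.022), Cgnl1 (0.26), Sox9 (0.16), Dusp6 (0.40), Lsr (0.498), Erbb3 (0.73), Kit (1.04), Krt5 (0.54), Mitf (1.21), Mki67 (1.27), mt-Cytb (0.54), Myb (0.25), Pou2f3 (0.35), Rrm1 (1.22) and Tpm1 (1.20). The first 5 of these were calls. Without any 1 library Mitf ranged from -1.17 to 0.029 and Emcn from -0.30 to 2.22. The sign changed for Mitf without Kit+ K5- replicate 1 (0.029) and without numbers 1 to 4 (0.085). For Emcn it did so without Kit- K5+ replicate 2 (-0.13), Kit+ K5+ replicate 3 (-0.30), numbers 5 to 8 (-0.54) and numbers 9 to 12 (-0.066). Without the 3 libraries it was -0.25 for Cd68 and 1.14 for Cpa3. No other named gene changed sign in the settings run.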

Other observations

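The 46 genes with unequal groups held further members of the stepped kind, which are described here after their values were seen. The endocytic receptor gene Lrp1 averaged 71.0 CPM in Kit+ K5+ libraries, 61.4 in Kit+ K5- libraries and 166 in Kit- K5+, against 686 CPM in Kit- K5- cells, with an interaction of 2.26. Ntrk2, the receptor for the neurotrophin BDNF, averaged 11.8 CPM in Kit+ K5+ libraries, 10.03 in Kit+ K5- libraries and 37.2 in Kit- K5+, against 231 CPM in Kit- K5- cells, with an interaction of 2.87. The receptor phosphatase gene Ptprd averaged 17.6, 11.8 and 59.3 CPM in the same 3 groups, against 344 CPM in Kit- K5- cells. Galnt3, which starts O-linked glycosylation, had the opposite order, with 33.8 CPM in Kit+ K5+ libraries, 38.7 in Kit+ K5- libraries and 15.5 in Kit- K5+, against 4.76 CPM in Kit- K5- cells, and an interaction of -1.91.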
